A study of Mus musculus with 90 samples.

Results

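The cytosolic ribosomal protein genes encode the protein part of the ribosome of the cytoplasm. They were taken as the protein-coding genes whose symbol is Rpl or Rps with a number and an optional suffix, together with Rpsa, Rplp0, Rplp1 and Rplp2. Pseudogene entries and the Rps6k kinases were left out. This gave 83 of the 38561 gene IDs of the deposited table, 51 for the large (60S) subunit and 32 for the small (40S) subunit, and 80 of them had enough counts to be tested. Rpl24 matched the naming rule in the annotation and was not analysed here. Rps27 and Rpl10l were listed at 0 in every library, and Rpl39l averaged 2.5 counts per library.

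The study measured RNA from the striatum and cortex of the right hemisphere of 45 mice aged 9 months, which makes 90 libraries in 10 groups of tissue and arm. All mice were C57BL6/J. Q175 mice carry an expanded CAG repeat in the mouse huntingtin gene as a knock-in, are used as a model of Huntington disease, and were homozygous here. The drug PF-02545920, which inhibits PDE10A (a phosphodiesterase abundant in striatal neurons), or vehicle alone was given by mouth once a day from 5 weeks of age until the tissue was taken. The Q175 arms were vehicle (7 mice, 5 female and 2 male), 0.32 mg/kg (10 mice, 5 of each sex), 1.0 mg/kg (10 mice, 5 of each sex) and 3.2 mg/kg (9 mice, 5 female and 4 male), and the WT arm was vehicle only (9 mice, 5 female and 4 male). Every dose comparison and the genotype comparison use the same 7 Q175 vehicle mice. WT mice were given no PF-02545920, so the drug was compared with vehicle in Q175 mice only.

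A ribosome holds most of its proteins in a single copy, with the stalk proteins Rplp1 and Rplp2 as exceptions, and the genes are known for high and parallel expression in all tissues. Their mRNAs begin with a run of pyrimidines at the cap (a 5′ terminal oligopyrimidine tract, or TOP), through which the mTORC1 kinase sets their translation, partly by way of the protein Larp1. In neurons they supply the ribosomes of the cell body and also of dendrites and axons. They are abundant, short and copied many times in the genome as processed pseudogenes, so read assignment, transcript length and base composition all bear on their counts.

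The start of the gene is shown for 8 members on which the results below turn, as the place where a TOP run would lie. Each line gives 15 bases before and 15 bases from the RefSeq start on GRCm38.p6, written along the gene's own strand, and capitals mark the longest pyrimidine run with a base within 3 bases of the start, where it was at least 8 bases long.
Rpl7a: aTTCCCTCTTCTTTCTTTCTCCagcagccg
Rpl14: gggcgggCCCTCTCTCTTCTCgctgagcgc
Rps9: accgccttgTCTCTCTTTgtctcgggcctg
Rpl18: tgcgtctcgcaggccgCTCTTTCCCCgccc
Rps6: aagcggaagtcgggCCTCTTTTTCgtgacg
Rplp2: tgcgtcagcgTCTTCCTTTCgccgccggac
Rpl7l1: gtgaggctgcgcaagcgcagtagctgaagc
Rpl3l: gagtgttctagctctgtcatttgacctctg
These windows lie at chr2:26910792-26910821 (plus strand) for Rpl7a, chr9:120571502-120571531 (plus) for Rpl14, chr7:3704026-3704055 (plus) for Rps9, chr7:45718056-45718085 (plus) for Rpl18, chr4:86857353-86857382 (minus) for Rps6, chr7:141447636-141447665 (plus) for Rplp2, chr17:46782642-46782671 (minus) for Rpl7l1 and chr17:24727811-24727840 (plus) for Rpl3l. The run was 21 bases long in Rpl7a, 14 in Rpl14 and 9 in Rps9, and the windows of Rpl7l1 and Rpl3l, which are paralogues of Rpl7 and Rpl3, held none of 8 bases. Of the 63 members with a RefSeq start entry, 21 (33.3%) had a run of at least 8 pyrimidines at the start, against 8.71% of the 27025 symbols in the same table. The windows shown thus hold such runs more often than those of the 63 members. Whether the RefSeq starts are the cap sites of these mRNAs was not tested. The letters CTTTCC stood within 15 bases of the start on the sense strand in 10 members (15.9%), against 1.67% of symbols, and between 250 bases before and 50 after it in 26 members (41.3%), against 16% of symbols. CGGAAG, the core of the motif of ETS factors, stood on either strand of those 300-base windows in 42 members (66.7%), against 18.8% of symbols. No CTTTCC match overlapped a CGGAAG match. A match is a description of these letters and no evidence that a factor binds there.

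Library totals ran from 30510374 to 44943841 estimated counts in striatum and from 37233807 to 45781479 in cortex. The members drew 1.04 to 1.33% of a striatum library and 1.01 to 1.40% of a cortex library. Medium spiny neuron markers summed to 5059 to 7091 CPM (counts scaled to library size) in WT striatum, against 438 to 591 CPM in WT cortex, and cortical excitatory neuron markers to 32.4 to 440.3 CPM in WT striatum, against 1569 to 1731 CPM in WT cortex, so the tissues matched their labels. In 2 cortex libraries, those of the 1.0 mg/kg females F1 and F4 (replicates are named by sex and number), counts fell with transcript length: their slopes over all other genes were -0.165 and -0.157 log2 units per doubling of length, where the other 43 cortex libraries lay between -0.041 and 0.037. Their mitochondrial transcripts took 10.7 and 10.8% of counts, against at most 9.41% in the others, and the member counts, list counts and named members of cortex at 1.0 mg/kg are given with and without them. In bulk tissue, fewer cells of a type and less RNA per cell cannot be told apart.

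Per transcript length, the members stood far above most genes. In WT striatum their median was 197.6 FPKM (fragments scaled by transcript length and library depth), against 6.26 FPKM over all genes tested, 62 of the 80 were over 100 FPKM, and 79 were above the all-gene median. WT cortex had a median of 170.1 FPKM, against 6.35 FPKM over all genes, with 59 members over 100 FPKM. The stalk protein Rplp1, which with Rplp2 and Rplp0 forms the arm that recruits elongation factors, was highest at 769 ± 96.7 FPKM in WT striatum and 715 ± 31.3 FPKM in WT cortex (SD, n = 9 each). Rpl41, the smallest ribosomal protein, followed at 560 ± 68.2 FPKM in WT striatum and 543 ± 29.4 FPKM in WT cortex. Rps15, which lies by the decoding centre, had 499 ± 80.8 FPKM in WT striatum and 486 ± 23.7 FPKM in WT cortex, within 1 SD of Rpl41 in striatum. The lowest tested members in WT striatum were Rpl3l at 0.423 ± 0.0861 FPKM, Rps6 at 6.93 ± 1.18 FPKM and Rps13 at 8.56 ± 2.14 FPKM. Rpl3l is known as the form of Rpl3 of heart and skeletal muscle. Rps6 is the classic substrate of the S6 kinases, and its low value stands beside the reads on its copies described next.

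**Figure D1:**
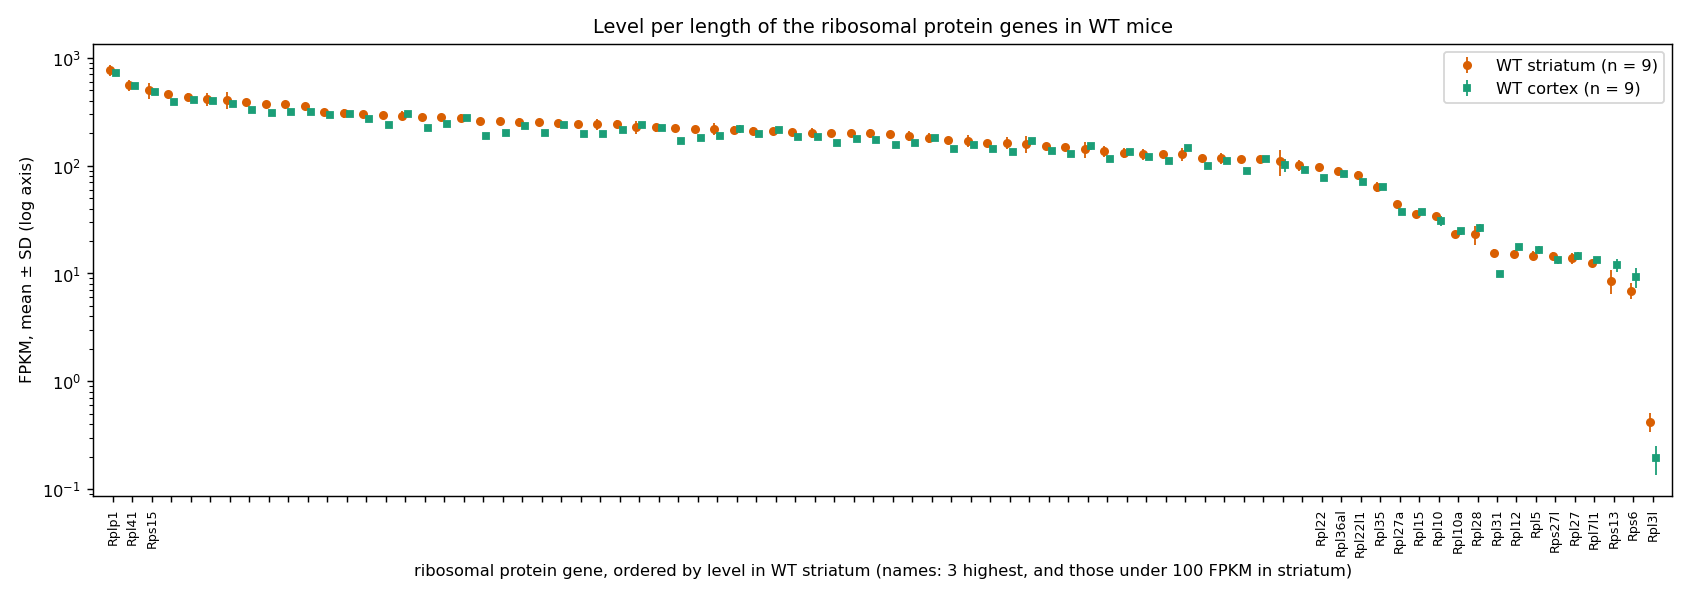
Level of each tested ribosomal protein gene in WT striatum and WT cortex, in FPKM on a log axis, with points for the mean and bars for the SD of 9 mice in each tissue. Genes are ordered by their level in striatum, where Rplp1 is highest at 769 FPKM and Rpl3l lowest at 0.423 FPKM, and names are given for the 3 highest genes and for those under 100 FPKM in striatum.

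Many reads of this family were listed under copies. The table held 235 other entries that share at least 50% of their 31-base words with a member, 227 of them pseudogenes, for 66 of the 83 members. These entries carried 97376 counts per library on average, 20.8% as many as the 468071 on the members themselves. For 14 members the copies held over 50% of the summed counts: Rps27 (100%), Rps6 (96.9%), Rpl31 (93.5%), Rps13 (91.9%), Rpl12 (91.5%), Rpl27 (89.4%), Rpl5 (89.4%), Rpl10 (88.5%), Rpl28 (85.8%), Rpl10a (81.2%), Rpl27a (74.2%), Rps12 (64.9%), Rpl15 (61.3%) and Rpl11 (51.4%). Levels and changes of these 14 are uncertain, since the deposited counts could split their reads in any proportion. Each comparison was therefore repeated with the counts of the near-identical entries added to their member, an alternative chosen after seeing the data. Rps6 then had 279.3 to 307.3 CPM in WT striatum and 214.9 to 228.8 CPM in WT cortex, where its own entry had 4.61 to 8.18 CPM in WT striatum and 6.29 to 11.7 CPM in WT cortex.

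The family was higher in WT striatum than in WT cortex. In the 9 WT mice, with mouse as a block in edgeR's quasi-likelihood test, 52 of 80 members were higher in striatum (37.1% of all genes were) and 6 were lower (35% of all genes), at a Benjamini-Hochberg adjusted p under 0.05, which is the threshold used throughout. The median member change was 0.19 on the log2 scale, against 0.01 over all genes tested, and 68 members had a positive change. In the large subunit 32 members were higher and 3 lower of 49, and in the small subunit 20 were higher and 3 lower of 31. The share of all counts on the members, which is not scaled by edgeR's TMM factors, was 1.16 ± 0.0754% in WT striatum and 1.05 ± 0.0315% in WT cortex (SD, n = 9 each).

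Among large-subunit genes Rpl30 had 164.8, 168.8 and 179.5 CPM in WT striatum (lowest, median and highest of 9 mice, as in all such triples), against 115, 121.1 and 129.5 CPM in WT cortex. The ranges did not overlap, and the change was 0.50 ± 0.0267 (log2, SE; adjusted p = 5.04e-10). Rpl31, at the exit tunnel of the large subunit, had 16.6, 18.3 and 21.8 CPM in striatum, against 10.4, 11.3 and 12.5 CPM in cortex, a change of 0.71 ± 0.0394 (adjusted p = 7.22e-10). Rpl7 had 218.7, 242.2 and 251.8 CPM in striatum, against 167.5, 177.3 and 182.3 CPM in cortex, a change of 0.45 ± 0.0328 (adjusted p = 1.77e-08). Rpl35a, mutated in some patients with Diamond-Blackfan anaemia, had 134.4, 145.8 and 156.7 CPM in striatum, against 105.6, 113.6 and 118.5 CPM in cortex, a change of 0.39 ± 0.0294 (adjusted p = 2.48e-08). For each of these genes every striatum library lay above every cortex library. In the small subunit the X-linked Rps4x had 240.5, 246.8 and 263 CPM in striatum, against 181.2, 191.1 and 202.1 CPM in cortex (change 0.38 ± 0.0278, adjusted p = 1.58e-08). Rps27a, made as a fusion with ubiquitin, had 131.2, 136.2 and 143.8 CPM in striatum, against 97.5, 109 and 113.3 CPM in cortex (change 0.35 ± 0.0288, adjusted p = 5.06e-08), and the ranges of both small-subunit genes were also apart.

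The 6 members listed as lower in WT striatum were mostly those with many reads on copies. Rps6 had 4.61, 6.48 and 8.18 CPM in striatum, against 6.29, 8.76 and 11.7 CPM in cortex, overlapping ranges with a change of -0.45 ± 0.125 (adjusted p = 0.00478). With its near-identical entries added the change was 0.39 (adjusted p = 2.43e-08). Rps13 went the same way, with 3.62, 4.76 and 8.11 CPM in striatum, against 5.01, 6.90 and 7.88 CPM in cortex and a change of -0.44 ± 0.116 (adjusted p = 0.00353). With its copies it had 82.6, 87.8 and 93.5 CPM in striatum, against 66.9, 68.4 and 75.7 CPM in cortex, and the change was 0.34 (adjusted p = 4.24e-07). Rpl5, which binds 5S rRNA with Rpl11, and Rpl28 also changed sign, from -0.20 and -0.23 as deposited to 0.27 and 0.32 with the copies. Rpl12, at the base of the stalk, was at -0.19 as deposited and at 0.02 (adjusted p = 0.622) with the copies. Rps15a, at -0.08 ± 0.0256 (adjusted p = 0.00889), was higher in striatum at 0.25 when FPKM values were tested. With the near-identical entries added, 63 members were higher (37.2% of all genes) and 1 lower (35.1% of all genes), with a median of 0.23. Of the 6 lower calls 4 then turned to higher calls.

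**Figure D2:**
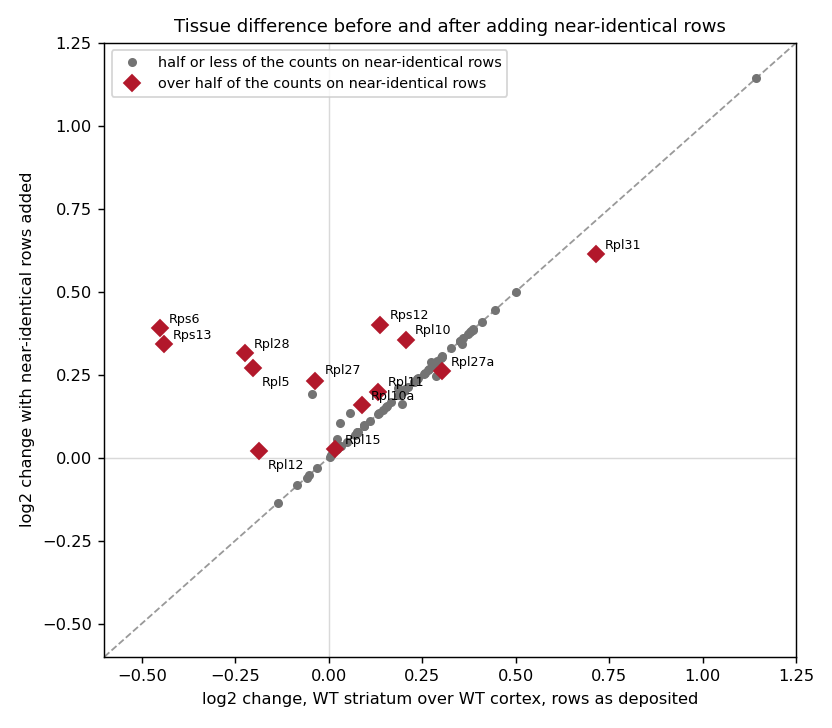
Log2 change of each ribosomal protein gene between WT striatum and WT cortex (9 mice), as deposited on the x axis and with the counts of near-identical entries added on the y axis. Red diamonds mark members with over 50% of their summed counts on near-identical entries, among them Rps6 at -0.45 as deposited and 0.39 with the copies.

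When each library was corrected for the trend of its counts with GC content and transcript length, 41 members were called higher in WT striatum (40% of all genes) and 10 lower (34.7% of all genes), and the median member change was 0.08. With this correction the median over all genes was 0.026 up to a GC content of 51.8% and 0.027 above it. Of the 52 higher calls 39 were kept, 11 were lost and 2 turned lower, all 6 lower calls were kept, and 4 calls were gained. Before correction, of the 40 members with GC content below the family median of 51.8% there were 32 higher and 5 lower, and of the 40 above it 20 were higher and 1 lower. Markers moved with the tissue: 9 of 9 medium spiny neuron and 5 of 5 oligodendrocyte markers were higher in WT striatum, and 6 of 6 cortical excitatory neuron and 5 of 5 astrocyte markers were lower. Oligodendrocyte markers summed to 8255 to 12050 CPM in WT striatum and 3592 to 4633 CPM in WT cortex, none at 0 in either. Their part in the members' difference was not tested.

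In the striatum of Q175 mice given vehicle, some members were slightly lower than in WT mice and very few were higher. Of 80 members 18 were lower (23.2% of all genes were) and 2 higher (21.9% of all genes), so the share that fell was near that of genes at large, while fewer rose. The median member change was -0.05, against 0.00 over all genes, and 61 members had a negative change. The large subunit had 14 lower and 2 higher of 49, and the small subunit 4 lower and 0 higher of 31. Medium spiny neuron markers, 8 of 9 of which were lower, summed to 2694 to 3169 CPM in Q175 striatum and 5059 to 7091 CPM in WT striatum, with none at 0. Of the astrocyte markers 3 of 5 were lower and 1 was higher (Gfap, 0.69), their sum being 857 to 1029 CPM in Q175 mice and 840 to 1062 CPM in WT mice, and of the oligodendrocyte markers 3 of 5 were lower, their sum being 6930 to 8985 CPM in Q175 mice and 8255 to 12050 CPM in WT mice. Cortical excitatory neuron markers (1 of 6 higher, 0 lower, median change -0.49) summed to 50.5 to 271.5 CPM in Q175 striatum and 32.4 to 440.3 CPM in WT striatum, a wide spread in both groups, and endothelial markers (1 of 4 lower) to 164.7 to 197.4 CPM in Q175 striatum and 163.4 to 213.5 CPM in WT striatum, with none at 0. The part of cell make-up in the members' changes was not tested.

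Rpl31 fell the most surely, with 13.2, 14.6 and 16.8 CPM in Q175 vehicle striatum, against 17.5, 19.1 and 22.8 CPM in WT striatum. No Q175 library reached the lowest WT library, and the change was -0.40 ± 0.0516 (adjusted p = 1.15e-08). With its copies Rpl31 had 231, 238.7 and 252.6 CPM in Q175 mice, against 268.9, 283.9 and 301.1 CPM in WT mice, still apart, with a change of -0.25. Rpl10a, another large-subunit protein, had 21.1, 22.4 and 23.6 CPM in Q175 mice, against 25.4, 27.6 and 29.8 CPM in WT mice (change -0.32 ± 0.0455, adjusted p = 1.61e-07). With its copies the ranges overlapped, at 126.5, 133.2 and 136 CPM in Q175 mice and 125.7, 137 and 150 CPM in WT mice, and the change was -0.07 (adjusted p = 0.0645). Rpl3l had 0.184, 0.352 and 0.479 CPM in Q175 mice, against 0.438, 0.593 and 0.784 CPM in WT mice, a change of -0.80 ± 0.174 (adjusted p = 0.000176) at a level of about 11.7 counts per library. Rpl12, Rpl30, Rpl38, Rpl14, Rpl34, Rpl35a, Rpl27a, Rpl29, Rpl9, Rpl26 and Rpl17 made up the other lower calls of the large subunit.

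The lower members of the small subunit were Rps19, Rpsa, Rps25 and Rps24. Rps19, needed for maturation of the 40S subunit and often mutated in Diamond-Blackfan anaemia, had 139.3, 141.6 and 148.7 CPM in Q175 vehicle striatum, against 143.5, 168.2 and 182.8 CPM in WT striatum. The ranges overlapped at the lowest WT values, and the change was -0.23 ± 0.0433 (adjusted p = 1.91e-05). Rpsa, also known as the laminin receptor, had 320.4, 328.7 and 333.1 CPM in Q175 mice, against 315.6, 368.8 and 430.4 CPM in WT mice (change -0.21 ± 0.0479, adjusted p = 0.000259), a narrow Q175 range inside the low end of a wide WT range. Rps25, used in initiation at internal ribosome entry sites, had 138.2, 141.8 and 150 CPM in Q175 mice, against 151.2, 162.7 and 171.1 CPM in WT mice, without overlap (change -0.16 ± 0.0368, adjusted p = 0.000454). Rps24 was also without overlap, at 183.7, 185.7 and 193.1 CPM in Q175 mice and 195.9, 199.9 and 208.6 CPM in WT mice (change -0.10, adjusted p = 0.00892). Over both subunits 4 of 80 members had every Q175 library below every WT library, and 0 had every one above. Of all 17315 genes tested, 1515 lay below in this way and 1077 above. The 2 members that rose were Rpl7l1, with 34.4, 38.7 and 42.7 CPM in Q175 mice, against 31.3, 35.5 and 38.4 CPM in WT mice (0.15 ± 0.0443, adjusted p = 0.00418), and Rpl7a (0.08 ± 0.0311, adjusted p = 0.0358). Both had overlapping ranges.

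The direction of this small shift depends on the scale. As a share of all counts the members took 1.22 ± 0.0210% in Q175 vehicle striatum (n = 7) and 1.16 ± 0.0754% in WT striatum (n = 9; SD), so the share was higher in Q175 mice. On log2(FPKM + 1), tested with limma, 28 members were higher (41.1% of all genes) and 4 lower (13.8% of all genes), with a median of 0.07. All genes tested shifted by 0.08 on that scale and by 0.11 with a pseudocount of 0.1, so relative to genes at large the members lay at -0.01 and -0.04 (log2). Of the 18 members called lower from counts, 4 were called lower on both scales. With the GC and length correction 22 members were lower (22.8% of all genes) and 7 higher (27.2% of all genes). With near-identical entries added 23 of 81 tested were lower (23.3% of all genes) and 3 higher (22% of all genes). In both, a smaller share of members than of all genes rose.

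**Figure D3:**
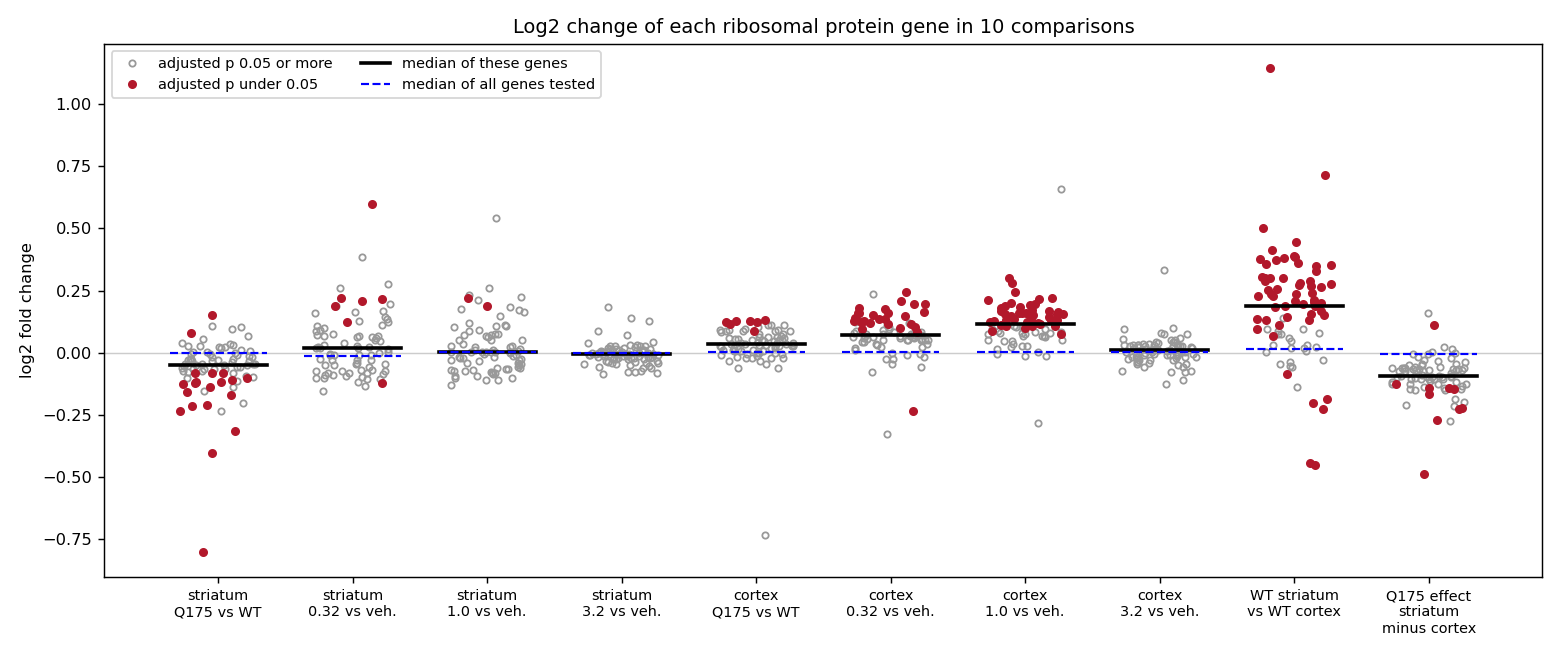
Log2 change of each tested ribosomal protein gene (80 points) in 10 comparisons, with red points for an adjusted p under 0.05, a black line for the members' median and a dashed blue line for the median of all genes tested. Points lie mostly above 0 in WT striatum against WT cortex (median 0.19) and in cortex at 1.0 mg/kg (median 0.11), and slightly below 0 in Q175 striatum (median -0.05).

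In the cortex the members called for genotype were all higher in Q175 mice. Of 80 members 7 were higher in Q175 vehicle cortex than in WT cortex (14% of all genes were) and 0 were lower (16.4% of all genes), and the median member change was 0.04, against 0.00 over all genes. Rpl7a had 193, 201.6 and 209.6 CPM in Q175 mice, against 172.9, 185.5 and 189.4 CPM in WT mice, and was the one member whose groups did not overlap (change 0.13 ± 0.0349, adjusted p = 0.00347). Of all 17603 genes tested, 849 had every Q175 library above every WT library and 1224 had every Q175 library below. Rpl18 had 99.97, 113.6 and 118.2 CPM in Q175 mice, against 97.6, 102.8 and 106.7 CPM in WT mice (0.13 ± 0.0434, adjusted p = 0.0196), and Rpl39, a small protein lining the exit tunnel, rose by 0.12 (adjusted p = 0.0483). In the small subunit Rps9, which bears on decoding accuracy, had 153.1, 172 and 178.1 CPM in Q175 mice, against 143.1, 156.5 and 161.5 CPM in WT mice (0.13 ± 0.0439, adjusted p = 0.0194). Rps20 (0.12), Rps21 (0.13) and Rps3 (0.09), which shapes the mRNA entry site, were the other higher members. Their ranges overlapped with those of WT mice.

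The count in this cortex comparison depended on the fit. With the L number of the library name as a term (a number from 1 to 8 whose meaning the labels do not give) 1 member was higher (10.3% of all genes) and 0 lower. L numbers 1 to 4 held 0 of 7 Q175 vehicle and 6 of 9 WT cortex libraries, so genotype and L number were partly confounded. On other scales more members passed: 25 were higher with the GC and length correction (20.8% of all genes), among them all 7, and 24 on log2(FPKM + 1) (23.2% of all genes), with 0 lower in both. The share of all counts was 1.12 ± 0.0231% in Q175 vehicle cortex (n = 7) and 1.05 ± 0.0315% in WT cortex (n = 9; SD). Leaving out 1 library at a time gave 3 to 8 calls: 4 without Q175 vehicle M1, 3 without M2 and 4 without F4 of that arm, and 3 without WT F1 or WT F4. Markers of medium spiny neurons (9 of 9 lower, summed 237 to 362 CPM in Q175 cortex and 438 to 591 CPM in WT cortex), cortical excitatory neurons (4 of 6 lower, 1376 to 1523 CPM in Q175 cortex and 1569 to 1731 CPM in WT cortex), astrocytes (3 of 5 lower, 883 to 1071 CPM in Q175 cortex and 1048 to 1204 CPM in WT cortex) and oligodendrocytes (3 of 5 lower and 1 higher, 2862 to 3515 CPM in Q175 cortex and 3592 to 4633 CPM in WT cortex) moved with genotype, none at 0. Their part was not tested.

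The difference between the tissues was tested directly, as the genotype effect in striatum minus that in cortex over all 90 libraries with mouse as a block. It was negative for 75 of 80 members, with a median of -0.09, against 0.00 over all genes. It passed the threshold as negative for 9 members (11.6% of all genes) and as positive for 1 (9.64% of all genes). Rpl31 differed most, by -0.49 ± 0.0635 (adjusted p = 5.02e-08), and by -0.28 with its copies. Rps19 (-0.23 ± 0.0509, adjusted p = 0.000691), Rpl34 (-0.14), Rpsa (-0.16), Rpl30 (-0.14), Rps25 (-0.14) and Rpl14 (-0.12) were also more negative in striatum. Rpl10a (-0.27) and Rpl10 (-0.22, adjusted p = 0.0469) have most of their reads on copies, and with these added Rpl10a stood at -0.14 and Rpl10 at -0.05 (adjusted p = 0.356). Rpl7l1 was the positive one, at 0.11 ± 0.0397 (adjusted p = 0.0337). With the GC and length correction 27 members differed, all negative (14.7% of all genes were), and on log2(FPKM + 1) 2 were negative (7.57% of all genes) and 1 positive, with a member median of -0.02 against an all-gene median of 0.05.

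In striatum few members differed between the drug arms and Q175 vehicle. At 0.32 mg/kg 6 members were higher (2.17% of all genes were) and 1 lower (0.323% of all genes), with a median member change of 0.02. Rplp1 had 394.8, 417.5 and 483.6 CPM at 0.32 mg/kg, against 353.2, 372.6 and 391.9 CPM in vehicle, without overlap (0.22 ± 0.0607, adjusted p = 0.0459). Rplp2 had 118.1, 122.8 and 128.9 CPM at 0.32 mg/kg, against 98.8, 107.4 and 111.5 CPM in vehicle, also without overlap (0.22 ± 0.0590, adjusted p = 0.0404). Rplp0, the stalk's base, had 170, 177.2 and 192.1 CPM at 0.32 mg/kg, against 162.5, 164.3 and 169.4 CPM in vehicle, again apart, and did not pass the test. Rps26, at the mRNA exit channel, had 84.7, 87.6 and 96.9 CPM at 0.32 mg/kg, against 75.3, 76.8 and 81.1 CPM in vehicle (0.21 ± 0.0514, adjusted p = 0.0303). Rps10 rose by 0.12 (adjusted p = 0.0459). At this dose 4 of 80 members had every library above every vehicle library, and 1 had every library below. Of all 17315 genes tested, 194 lay above in this way and 35 below.

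The other higher members of striatum at 0.32 mg/kg were Rps13, at 0.60 ± 0.152 as deposited and 0.07 (adjusted p = 0.149) with its copies, and Rpl12, at 0.19 as deposited and 0.10 with its copies. None of the 7 calls held with the GC and length correction, under which 0 members and 0% of all genes were higher, and Rps10 then stood at -0.03. Leaving out 1 library gave 0 to 9 calls. Over 1.5 times fewer members were called without 0.32 mg/kg F1 (1), F5 (1), M3 (3) or M5 (2) and without vehicle F1 (0), F2 (0), F3 (0), F4 (1), F5 (3) or M1 (2). Above the GC content of 51.8% 3 of 40 members were called higher, against 4.97% of genes in that range, and below it 3 of 40, against 0.0921%. The GC trend of a striatum library, in log2 units per 10 points of GC, ran from -0.007 to 0.163 at 0.32 mg/kg, against -0.076 to 0.001 in vehicle, and its part in these calls was not tested beyond the correction. Of the 3 blood markers in striatum, 1 was lower at the low dose, 1 at the middle dose and 2 at the high dose. Their sums were 40.5 to 730.1 CPM in vehicle (median 90.5) and 51.0 to 110.2 CPM at 0.32 mg/kg (median 86.7). At 1.0 mg/kg they were 60.9 to 121.3 CPM (median 73.5) and at 3.2 mg/kg 41.4 to 97.7 CPM (median 66.0). Their part was not tested.

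At 1.0 mg/kg in striatum 2 members were higher (0.797% of all genes were) and 0 lower (0.277% of all genes). These were Rpl12, with 13.1, 14.2 and 15.6 CPM at 1.0 mg/kg, against 11.4, 12.3 and 13.8 CPM in vehicle (0.22 ± 0.0510, adjusted p = 0.027), and Rpl10a, with 22.8, 25.2 and 29.0 CPM at 1.0 mg/kg, against 21.1, 22.4 and 23.6 CPM in vehicle (0.19 ± 0.0446, adjusted p = 0.0279). Both overlap, both have most reads on copies, and with these added the changes were 0.07 and 0.05. L number 1 was that of 5 striatum libraries at 1.0 mg/kg and of 0 in vehicle, so dose and L number were partly confounded here too. No call was left without 1.0 mg/kg M1 or F5 or without vehicle M1, F2, F3 or F4, 1 without M4 or F3 of the 1.0 mg/kg arm, and 9 (4 higher, 5 lower) without its M2. At 3.2 mg/kg 0 members were higher (1.33% of all genes) and 0 lower (0.15% of all genes) by edgeR's quasi-likelihood test, 1 of 80 had an unadjusted p under 0.05, and DESeq2 called 0. Rplp2 averaged 106.1 CPM in vehicle, 122.5 CPM at 0.32 mg/kg, 117.8 CPM at 1.0 mg/kg and 103 CPM at 3.2 mg/kg.

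The clearest dose differences were in the cortex, at the lower and the middle dose. At 0.32 mg/kg 25 members were higher (5.18% of all genes were) and 1 lower (4.98% of all genes), and the median member change was 0.07, against 0.00 over all genes. At 1.0 mg/kg 46 members were higher (10.9% of all genes) and 0 lower (9.8% of all genes), with a median of 0.11, against 0.00 over all genes. At 3.2 mg/kg 0 members and 0% of all genes were called in either direction by edgeR's quasi-likelihood test, 2 members had an unadjusted p under 0.05, and DESeq2 called 0 members. The large subunit held 18 of the higher members at 0.32 mg/kg and 30 at 1.0 mg/kg, of 49, and the small subunit 7 and 16, of 31. Without the females F1 and F4 the counts at 1.0 mg/kg were 15 and 5. All 25 members higher at 0.32 mg/kg were also called at 1.0 mg/kg, and the 2 comparisons share their 7 vehicle mice. The share of all counts on the members was 1.12 ± 0.0231% in vehicle cortex (n = 7), 1.18 ± 0.0458% at 0.32 mg/kg (n = 10), 1.21 ± 0.0993% at 1.0 mg/kg (n = 10) and 1.13 ± 0.0420% at 3.2 mg/kg (n = 9; SD).

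**Figure D4:**
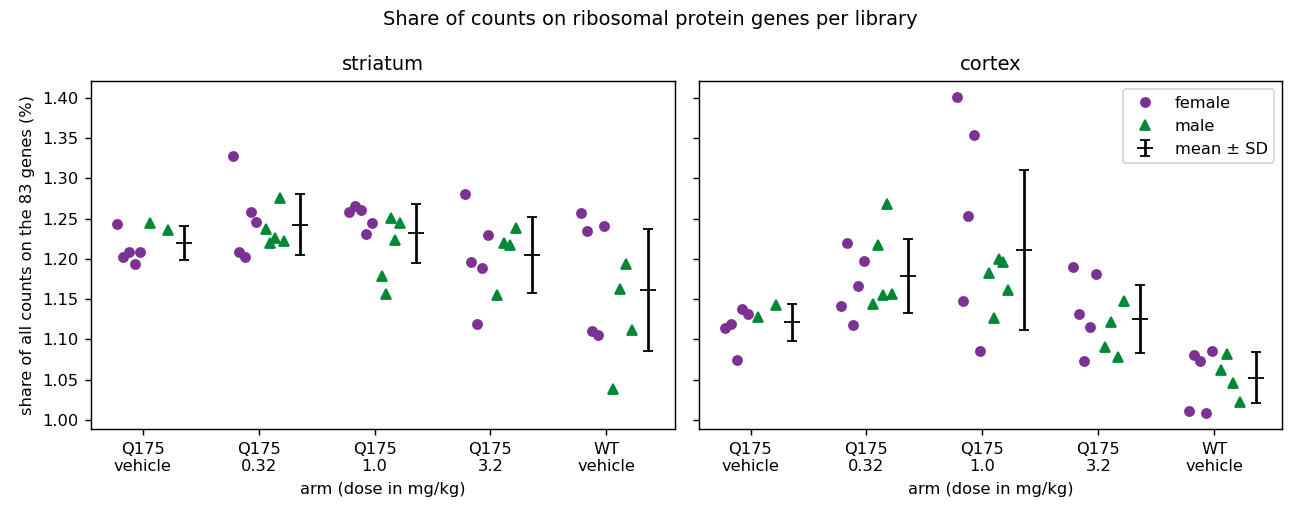
Share of all estimated counts on the 83 ribosomal protein genes, in percent, for each library by tissue and arm, with the mean and SD of each arm and symbols for sex. In cortex the arm means are 1.12% in Q175 vehicle, 1.18% at 0.32 mg/kg, 1.21% at 1.0 mg/kg, 1.13% at 3.2 mg/kg and 1.05% in WT, and the highest library is a 1.0 mg/kg female at 1.40%.

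Rpl39 had 85.2, 88.9 and 90.5 CPM in vehicle cortex, 92.3, 101.2 and 105.9 CPM at 0.32 mg/kg, 93.2, 104.2 and 128.2 CPM at 1.0 mg/kg and 90.3, 92.4 and 101.1 CPM at 3.2 mg/kg. Every mouse of the lower and middle doses lay above every vehicle mouse, while at 3.2 mg/kg the range reached into that of vehicle. The changes were 0.20 ± 0.0451 at 0.32 mg/kg (adjusted p = 0.00558), 0.28 ± 0.0451 at 1.0 mg/kg (adjusted p = 0.000137) and 0.09 ± 0.0458 at 3.2 mg/kg (adjusted p = 0.665). Rpl9 had 242.1, 246.8 and 254.9 CPM in vehicle, 258.6, 283.9 and 296.2 CPM at 0.32 mg/kg and 254.1, 274 and 348.8 CPM at 1.0 mg/kg. It was apart from vehicle at 0.32 mg/kg (0.20 ± 0.0404, adjusted p = 0.00197) and overlapped slightly at 1.0 mg/kg (0.22 ± 0.0403, adjusted p = 0.000399). Rpl14, whose pyrimidine run is shown above, had 145.7, 151.2 and 154.2 CPM in vehicle, 156.9, 168.3 and 183.6 CPM at 0.32 mg/kg and 151.2, 177.4 and 193.2 CPM at 1.0 mg/kg. Its changes were 0.16 ± 0.0406 (adjusted p = 0.0099) at 0.32 mg/kg and 0.22 ± 0.0406 (adjusted p = 0.000371) at 1.0 mg/kg, apart from vehicle at 0.32 mg/kg and with overlap at 1.0 mg/kg.

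In the small subunit Rps7 had 191, 197.6 and 209.1 CPM in cortex at 0.32 mg/kg, against 175.2, 177.2 and 189.3 CPM in vehicle, without overlap (0.14 ± 0.0327, adjusted p = 0.00596). Rps27a had 123.7, 127.3 and 131.1 CPM at 0.32 mg/kg, against 111.3, 114.1 and 116.7 CPM in vehicle, also apart (0.17 ± 0.0418, adjusted p = 0.0102). At 1.0 mg/kg Rpl17 (0.19 ± 0.0356, adjusted p = 0.000371), Rpl7 (0.16 ± 0.0311, adjusted p = 0.000569) and Rpl23 (0.20 ± 0.0384, adjusted p = 0.000596) were further large-subunit genes that rose, and Rpl23, with 143, 151.3 and 187.2 CPM at 1.0 mg/kg, against 131.4, 139.1 and 142.7 CPM in vehicle, did not overlap. Rplp2 rose by 0.19 at 1.0 mg/kg (adjusted p = 0.0044). Without F1 and F4 these 4 changes were 0.14 for Rpl17, 0.10 for Rpl7, 0.12 for Rpl23 and 0.13 for Rplp2 (adjusted p = 0.0444), and all passed. At 0.32 mg/kg 13 members had every library above every vehicle library, against 161 of all 17603 genes tested, and at 1.0 mg/kg 2 did, Rpl23 and Rpl39, against 151 genes. The single lower member, Rpl27, had 7.81, 8.16 and 9.68 CPM at 0.32 mg/kg, against 9.00, 10.2 and 10.8 CPM in vehicle (-0.24 ± 0.0661, adjusted p = 0.0185), and with its copies it stood at 0.07 (adjusted p = 0.135).

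The cortex calls moved with GC content, length and single libraries. With the GC and length correction 12 members were higher at 0.32 mg/kg (0.756% of all genes) and 1 lower, 7 of the 12 being among the 25, and 17 were higher at 1.0 mg/kg (2.73% of all genes) with 15 among the 46. Below the GC median 17 of 40 members were higher at 0.32 mg/kg, against 8.61% of genes in that range, and above it 8 of 40, against 0.649%. At 1.0 mg/kg 29 of 40 members below it were higher, against 17.2% of genes, and 17 of 40 above it, against 2.64%. Cortex GC slopes (log2 units per 10 points of GC) ran from 0.014 to 0.103 in vehicle and -0.11 to 0.061 at 0.32 mg/kg. They ran from -0.168 to 0.037 at 1.0 mg/kg and from -0.069 to 0.052 at 3.2 mg/kg. Length slopes (log2 units per doubling) ran from 0.005 to 0.033 in vehicle and -0.041 to 0.011 at 0.32 mg/kg. These were -0.165 to 0.006 at 1.0 mg/kg and -0.008 to 0.032 at 3.2 mg/kg. The part of both trends in these calls was not tested beyond the correction. With the L number as a term, 3 members were higher at 0.32 mg/kg (0.869% of all genes). L numbers 1 to 4 held 0 of 7 vehicle cortex libraries, 4 of 10 at 0.32 mg/kg, 3 of 10 at 1.0 mg/kg and 4 of 9 at 3.2 mg/kg. Dose and L number were thus partly confounded. The 1.0 mg/kg females F1 and F4 both had L number 3, as had 2 cortex libraries at 0.32 mg/kg and 2 of WT mice. Without vehicle F2 15 members were called at 0.32 mg/kg, and without vehicle F4 16.

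The females F1 and F4 of the 1.0 mg/kg arm drew 1.40 and 1.35% of their counts on the members. Without them the arm averaged 1.17 ± 0.0508% (SD, n = 8), 20 members were higher than in vehicle (6.12% of all genes), all among the 46, and the median change was 0.06. Rpl39 (0.20), Rpl14 (0.18) and Rpl9 (0.14) were among these 20, and they also passed at 1.0 mg/kg with the GC and length correction, at 0.17, 0.17 and 0.12. Over the 45 cortex libraries the members' median deviation from the WT mean went down as the length slope of all other genes went up (Pearson r = -0.88, Spearman rho = -0.84, and r = -0.80, rho = -0.81 over 43 libraries without F1 and F4). Its correlation with the GC slope was -0.52, and in the 45 striatum libraries the correlations were 0.60 with the GC slope and -0.53 with the length slope. These are descriptions across libraries that share arms and normalization. All 3 blood markers were called lower at 0.32 mg/kg and at 1.0 mg/kg. Their sums were 63.0 to 132.9 CPM (median 93.7) at 0.32 mg/kg and 74.4 to 102.1 CPM (median 88.9) at 1.0 mg/kg. In vehicle they were 47.4 to 908 CPM (median 95.3), so the medians lay close together beside a wide vehicle range. Choroid plexus markers in cortex summed to 33.55 to 417 CPM in vehicle (median 233.4) and 12.51 to 508.8 CPM in WT (median 36.95). These sums were 19.44 to 1141 CPM at 0.32 mg/kg (median 80.4) and 15.14 to 324.6 CPM at 1.0 mg/kg (median 20.67). At 3.2 mg/kg they were 10.89 to 379 CPM (median 31.98). Without F1 and F4, 0 of 3 were called at 1.0 mg/kg. The part of the blood and choroid plexus markers was not tested.

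**Figure D5:**
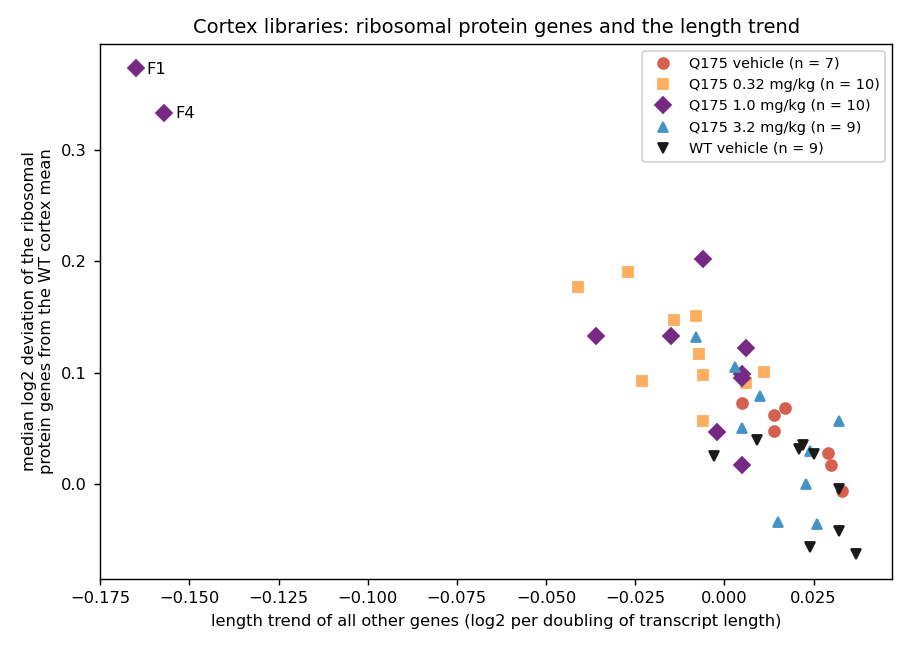
Median log2 deviation of the ribosomal protein genes from the WT cortex mean (y axis) against the slope of all other genes with transcript length in log2 units per doubling (x axis), 1 point for each of 45 cortex libraries, coloured by arm. The 1.0 mg/kg females F1 and F4 lie apart at slopes of -0.165 and -0.157 with deviations of 0.37 and 0.33, and the other 43 libraries fall between slopes of -0.041 and 0.037.

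No member passed a direct test of whether the effect of 3.2 mg/kg differed between the tissues. As the effect in striatum minus that in cortex, 0 members were positive (1.1% of all genes) and 0 negative (0.0666% of all genes) by edgeR's quasi-likelihood test, and 3 of 80 had an unadjusted p under 0.05. The 3 members with the smallest p were Rpl12 (0.17 ± 0.0802, adjusted p = 0.676, and -0.02 with its copies), Rps15a (-0.08, adjusted p = 0.69) and Rpl39 (-0.12 ± 0.0588, adjusted p = 0.691). A p above the threshold does not show that the tissues responded alike.

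Other genes of translation were followed through lists drawn up by gene name. Their counts stand beside the shares of all genes called, which in cortex at 1.0 mg/kg were 10.9% higher and 9.8% lower. In cortex at 1.0 mg/kg, of 17 translation factors and other genes with TOP mRNAs 11 were higher and 1 lower, with a median of 0.11, and among 32 other translation factors 11 were higher and 3 lower (median 0.07). Btf3, of the nascent-chain complex, rose by 0.16 (adjusted p = 0.000596), the poly(A)-binding protein gene Pabpc1 by 0.11 and the initiation factor gene Eif3e by 0.20, while the elongation factor gene Eef2 fell by 0.11. Of 48 ribosome assembly genes 9 were higher and 7 lower, with Npm1, a nucleolar chaperone, at 0.20 and Rrp12, an assembly factor, at -0.22. Of 24 mTORC1 pathway and TOP regulator genes 6 were higher and 5 lower. Of these, the kinase gene Mtor (-0.23), its partner Rptor (-0.17) and its inhibitor Tsc2 (-0.17) were lower, and the translation inhibitor Pdcd4 was higher (0.19). These values are without the GC and length correction. Of 12 ribosome-associated chaperone and quality control genes 1 was higher and 3 lower. The genes for the separate ribosome of mitochondria (Mrpl and Mrps, a list chosen after seeing the data) were higher in 23 of 77 cases and lower in 0. With the GC and length correction, under which 2.73% of all genes were higher, the higher calls were 5 of 17 for TOP factors, 4 of 32 for other factors and 6 of 77 for mitochondrial ribosomal proteins. Without F1 and F4, where 6.12% of all genes were higher and 6.04% lower, 4 of 17 TOP factors were higher and 1 lower, 6 of 32 other factors higher and 1 lower, 4 of 48 assembly genes higher and 2 lower, 4 of 24 mTORC1 and regulator genes higher and 6 lower, 1 of 12 chaperone and quality control genes higher and 2 lower, and 8 of 77 mitochondrial ribosomal genes higher and 1 lower. Each gene named here still passed without them, with smaller changes such as 0.10 for Btf3, 0.14 for Npm1 and -0.15 for Mtor.

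At 0.32 mg/kg in cortex, where 5.18% of all genes were higher and 4.98% lower, 4 of 17 TOP factors were higher and 1 lower. Mitochondrial ribosomal genes were higher in 10 of 77 cases and lower in 0. In the tissue contrast, with 37.1% of all genes higher and 35% lower, 11 of 17 TOP factors were higher in WT striatum and 1 lower, with Eef1a1 at 0.48, Eef1b2 at 0.36 and Pabpc1 at 0.35. For the Q175 genotype in striatum, with 21.9% of all genes higher and 23.2% lower, the TOP factors split, 4 higher and 4 lower: Eef1a1 rose by 0.16 and Btf3 by 0.16, and Tpt1 fell by 0.18 and Pabpc1 by 0.11. Ribosome assembly genes were higher in 16 of 48 cases and lower in 6, with the methyltransferase gene Fbl at 0.36 and Ubtf, the transcription factor of RNA polymerase I, at -0.53. In cortex of Q175 mice Fbl (0.43) and Ubtf (-0.22) changed in the same directions, and 10 of 48 assembly genes were higher and 1 lower, against 14% and 16.4% of all genes. The Ubtf change was more negative in striatum, by -0.30 ± 0.0434 (adjusted p = 4.24e-07) in the test of that difference.

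Some ribosomal proteins have a paralogue, and the counts of such pairs were set against each other. Rpl22l1, a paralogue of Rpl22 and of the lowest GC content in the family (40.6%), had 39.1, 42.7 and 45.4 CPM in cortex at 0.32 mg/kg, against 33.6, 36.6 and 37.9 CPM in vehicle cortex, without overlap (0.24 ± 0.0591, adjusted p = 0.00763), and it stood at 0.09 (adjusted p = 0.216) with the GC and length correction. Its counts were 41.1 ± 0.843% of those of Rpl22 in vehicle cortex (n = 7), 45.9 ± 3.34% at 0.32 mg/kg (n = 10), 45.5 ± 6.10% at 1.0 mg/kg (n = 10) and 41.7 ± 2.59% at 3.2 mg/kg (n = 9; SD). The log2 ratio differed from vehicle by 0.16 at 0.32 mg/kg (exact two-sided permutation p = 0.00211, adjusted over 8 comparisons 0.0169) and by 0.14 at 1.0 mg/kg (exact p = 0.079, adjusted 0.158). Without F1 and F4 the ratio at 1.0 mg/kg was 42.9 ± 3.02% (n = 8), a difference of 0.06 (exact p = 0.186). In striatum it differed by -0.09 at 0.32 mg/kg (exact p = 0.0713) and by -0.11 at 1.0 mg/kg (exact p = 0.0167, adjusted 0.0668). The ratio of Rpl22l1 to Rpl22 was taken without the GC and length correction, and Rpl22 has a GC content of 47.3%. The part of the GC trend in this ratio was not tested. The 8 comparisons cover this pair alone, and ratios of other pairs were not tested. In cortex Rpl36al counts were 63.1 ± 1.37% of Rpl36a counts in vehicle (n = 7) and 59.3 ± 2.06% at 0.32 mg/kg (n = 10; SD). Rpl3l counts were 0.0610 ± 0.0199% of Rpl3 counts in Q175 vehicle striatum (n = 7) and 0.112 ± 0.0215% in WT striatum (n = 9; SD). Rpl3l was also lower in WT cortex than in WT striatum, at 0.419, 0.564 and 0.747 CPM in striatum, against 0.182, 0.239 and 0.438 CPM in cortex (1.14 ± 0.173, adjusted p = 3.56e-05). Rpl7l1 counts were 15.6 ± 1.01% of Rpl7 counts in Q175 vehicle striatum (n = 7) and 13.9 ± 1.10% in WT striatum (n = 9; SD). Rps27l was listed at 14.6 ± 1.24 FPKM in WT striatum (n = 9), with Rps27 itself at 0. That 0 stands beside reads on a near-identical entry of Rps27. With this entry added Rps27 had 130, 150.3 and 165.5 CPM in WT striatum, against 6.28, 7.64 and 8.01 CPM for Rps27l.

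Few members differed by sex. Over the 25 females and 20 males, 7 members were higher in females in striatum (4.79% of all genes were) and 0 lower (5.68% of all genes). In cortex 1 was higher (1.16% of all genes) and 0 lower (1.05% of all genes). Rps2 had 249.7, 278.6 and 298.9 CPM in female striatum, against 232.7, 260.6 and 279.7 CPM in male striatum, widely overlapping (0.09 ± 0.0230, adjusted p = 0.0106). Rplp1 (0.12), Rpl31 (0.10), Rpsa (0.09), Rpl10a (0.08), Rpl27a (0.07) and Rpl23a (0.05) were the others. Rpl31, Rpl10a and Rpl27a have most of their reads on copies. With near-identical entries added 5 of the 7 striatum calls were kept and 2 were lost. With the GC and length correction 2 members were higher in female striatum (3.22% of all genes). In cortex Rpl27a had 39.6, 45.2 and 60.8 CPM in females, against 35.7, 42.6 and 46.9 CPM in males (0.12 ± 0.0318, adjusted p = 0.0355), and 0.03 with its copies. None of the 4 X-linked members passed in either tissue, though 88.5% of the summed counts of Rpl10 lay on copies. In striatum Rps4x averaged 252.7 CPM in females and 252.4 CPM in males, Rpl36a 77.6 CPM in females and 76.3 CPM in males, Rpl39 98.6 CPM in females and 99.6 CPM in males, and Rpl10 27.3 CPM in females and 28.2 CPM in males. The X-linked initiation factor gene Eif2s3x, which escapes X inactivation in mice, was higher in females by 0.55 in striatum and 0.58 in cortex.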

How the data were processed

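RNA of both tissues of each mouse was isolated with a Qiagen miRNeasy kit, per the labels' protocols. CASAVA 1.8.2 is named in the submitters' processing notes. No source used here gives the aligner, quantifier, annotation or strand setting. The authors deposited 1 table of estimated counts per gene, of which 81.5% are whole to within 1e-06, and 1 table of FPKM values. Every sample column was matched to a sample by its description.

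Estimated counts were rounded and fitted with edgeR 4.0.16 (R 4.3.3; TMM factors, filterByExpr, quasi-likelihood F test, Benjamini-Hochberg adjustment over all genes tested, threshold 0.05). Within a tissue all 45 libraries entered 1 fit with arm and sex as terms. The comparison of WT tissues (18 libraries) and the differences between tissues (90 libraries) had mouse as a block, since the labels number each animal and both its tissues: deviations of the 2 tissues of a mouse correlated at 0.12 to 0.76 (median 0.40, 45 mice). CPM values are TMM-scaled within a tissue, and over the 18 WT libraries for the tissue comparison. FPKM values were tested with limma 3.58.1 on log2(FPKM + 1), which understates changes of low genes. The GC and length correction used per-library smooth trends of log counts (5 degrees of freedom) as offsets. Gene coordinates, GC content and length came from GENCODE M21, and start windows from RefSeq (GRCm38.p6). All 366 pairs of libraries within a group differed by more than sampling noise (chi-square of at least 3.42 per degree of freedom). The fits were tested on simulated data. The labels' mouse numbers make the replicates separate animals. DESeq2 1.42.0, other filters and scalings, the L number, pseudogene entries and leaving out libraries were the alternatives.

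The members, the gene lists and the tests were chosen with earlier results of these data known, and the mitochondrial ribosomal list, the near-identical entries and the omission of the 1.0 mg/kg females F1 and F4 (for members, lists and the Rpl22l1 ratio) were chosen after seeing the data. Named genes were, for each comparison, up to 6 members called higher and up to 6 called lower by smallest p (the 3 smallest where fewer than 3 passed), the extremes of level and GC content, stalk, X-linked and paralogous members, and Rps6, Rpsa and Rps19. Beyond this rule, members that complete a list of calls or whose groups did not overlap were named after their values were seen. The sequence of Rpl17 and the values of some genes are not reported here.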

Additional observations from a re-analysis of the deposited data

Results flagged for a closer look

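Within-group spread was checked in 69 sets of sample values, of which chance alone sets about 1 in 20 apart. Both that stood apart were cortex of the Q175 vehicle female F3: its share of counts on the members was the lowest of its arm at 1.07%, with the next at 1.11%, and its Rpl18 level was the lowest at 99.97 CPM, with the next at 110.6 CPM. The genotype effect differed between the tissues, by the direct test of striatum minus cortex, for 10 members, 9 of 80 negative (11.6% of all genes were) and 1 positive (9.64% of all genes), so the share is no higher than among genes at large: Rpl31 (-0.488), Rpl10a (-0.269), Rps19 (-0.227), Rpl10 (-0.22), Rpsa (-0.164), Rps25 (-0.145), Rpl30 (-0.143), Rpl34 (-0.141), Rpl14 (-0.125) and Rpl7l1 (0.113), all in log2 units. With near-identical entries added Rpl10 no longer passed.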

How the results depend on the processing

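Of 140 alternative counts of called members 94 stayed within 1.5 times of the reported count, where 0 calls in both fits also counted as staying. Of 140 alternative medians 132 moved by less than the spread between replicates. That spread came from the SD of library medians within arms, which was 0.116 in cortex at 1.0 mg/kg, where the median change was 0.114. A move of nearly the size of the change itself could therefore count as small. Of 791 alternative values for named members 655 kept direction and side of the threshold, 116 lost the call, 7 gained it and 13 reversed. In striatum at 0.32 mg/kg (7 called) DESeq2 called 15, fitting only the 2 groups 25, no expression filter 2, no sex term 1, the L number 1 and the GC and length correction 0. In striatum at 1.0 mg/kg (2 called) these gave 11, 6, 0, 1, 0 (median 0.039) and 0, pseudogene entries gave 1 and near-identical entries 0. For sex in striatum (7) DESeq2 gave 11, no filter 3, the correction 2 and FPKM 3 with either pseudocount, and in cortex (1) DESeq2 gave 2, the correction 5, and the L number, FPKM with either pseudocount and near-identical entries 0. For genotype in striatum (20 called, median -0.048) FPKM gave 32, median 0.068, with either pseudocount. In cortex (7) the 2 groups alone gave 25, the correction 25, FPKM 24 (medians 0.079 and 0.081 with pseudocounts of 1 and 0.1) and the L number 1. In cortex at 0.32 mg/kg (26) the L number gave 3 and the correction 13, and at 1.0 mg/kg (46) the 2 groups alone gave 20, the L number 30, the correction 17 and omission of F1 and F4 20. The WT tissue median was 0.084 with the correction. The genotype difference between tissues (10) gave 6 with no filter, 27 with the correction and 3 on FPKM (median -0.022, either pseudocount). The cause of these shifts was not tested.

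Signs reversed for Rps10 in striatum at 0.32 mg/kg (-0.029, correction), Rpl27 in cortex at 0.32 mg/kg (0.075), Rpl12 in the difference of the 3.2 mg/kg effect (-0.019) and, in WT striatum against WT cortex, Rps13 (0.342), Rps6 (0.39) and Rpl28 (0.315), with pseudogene or near-identical entries, Rpl12 (0.02) and Rpl5 (0.269) with near-identical entries, and Rps15a on FPKM (0.251 and 0.253).

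Leaving out 1 library or mouse gave called counts and medians of 18 to 25 and -0.073 to -0.028 for genotype in striatum, 3 to 8 and 0.029 to 0.047 in cortex, and 54 to 62 and 0.16 to 0.216 for WT tissues. For the doses it gave, in striatum, 0 to 9 and 0.009 to 0.028 (0.32 mg/kg), 0 to 9 and -0.003 to 0.017 (1.0 mg/kg) and 0 to 0 and -0.019 to 0.004 (3.2 mg/kg), and in cortex 15 to 27 and 0.06 to 0.085, 32 to 54 and 0.09 to 0.129, and 0 to 0 and -0.002 to 0.02.

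By the labels' animal numbers, same-numbered mice of different arms are separate animals. Over 7 such pairs per comparison the lowest correlation was -0.2 to 0.02, the median 0.11 to 0.24 and the highest 0.23 to 0.43. Of the 7 pairs 4 to 6 were over 0.1, and 0 to 3 correlated best with their own number. With the replicate block 22 members were called for genotype in striatum and 5 in cortex, 1, 0 and 0 in striatum and 17, 41 and 0 in cortex at 0.32, 1.0 and 3.2 mg/kg. Without the mouse pairing 58 were called for WT tissues, 5 for the genotype difference and 0 for that of the 3.2 mg/kg effect. Under the block 10 of 43 named calls were lost and 0 reversed, and without the mouse pairing 3 of 22.

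Library depth leaves little counting error for most members. Rpl3l, at about 11.7 counts per library, is the exception among those tested. Where over 50% of a member's reads lie on copies, the deposited values limit what can be said of that gene.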
